A study of Mus musculus with 12 samples.

Results

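Macrophages sorted from mouse hearts 30 days after a freezing injury were compared with macrophages taken through the same sorting gate 7 days after the injury. Of the 12 RNA sequencing libraries of the series, 6 belong to this comparison, 3 of day 30 and 3 of day 7. The cells came from hearts of Cx3cr1GFP/+ mice aged 2-3 months, which carry GFP in place of one allele of Cx3cr1, a chemokine receptor gene, so every group here has 1 working copy of it. The sorting gate of both groups was Ly6c-low, CX3CR1-high, and their injury was cryoinjury, in which the heart wall is frozen as a model of myocardial infarction. The labels speak of independent biological replicates but name no animals, so p-values measure the spread between libraries, which may be partly technical. Uninjured hearts (day 0, no surgery, the same gate) and Ly6c-high, CX3CR1-low cells of day 3 gave the other 6 libraries, whose values are given for orientation and without a test. Of 14460 genes in the table, 12879 averaged a signal of 1 or more across the 12 libraries and entered the test. Signal here is the normalized linear read count that the authors deposited.

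Heart macrophages form a resident population that marks itself by scavenger and endocytic receptors such as Lyve1, Timd4, Cd163 and Mrc1, and that is joined after injury by cells derived from blood monocytes. In the first week after an infarct macrophages take up dead cells and debris, break them down in lysosomes and handle the cholesterol and lipid that this sets free, while fibroblasts lay down a collagen scar. By a month the scar is mature and the inflammation of the first days has passed. Handling and dissociating a tissue is known to switch on early response genes such as Fos, Egr1 and the heat shock genes within the hours before lysis.

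The test was limma on log2(signal + 1), two-sided, with Benjamini-Hochberg adjustment over all genes tested and a threshold of 0.05. It called 5103 genes (39.6% of those tested), of which 2539 were higher at day 30 (19.7%) and 2564 lower (19.9%). With a change of at least 2-fold besides, 997 genes were higher (7.74%) and 1068 lower (8.29%). The median change of all genes tested was 0.01 on the log2 scale, and in 55.3% of the genes all day 30 values lay on one side of all day 7 values. Fold changes are given as log2 of day 30 over day 7 with a standard error, which rests on the spread of all 12 libraries, so a change of low genes is understated by the added 1.

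**Figure D1:**
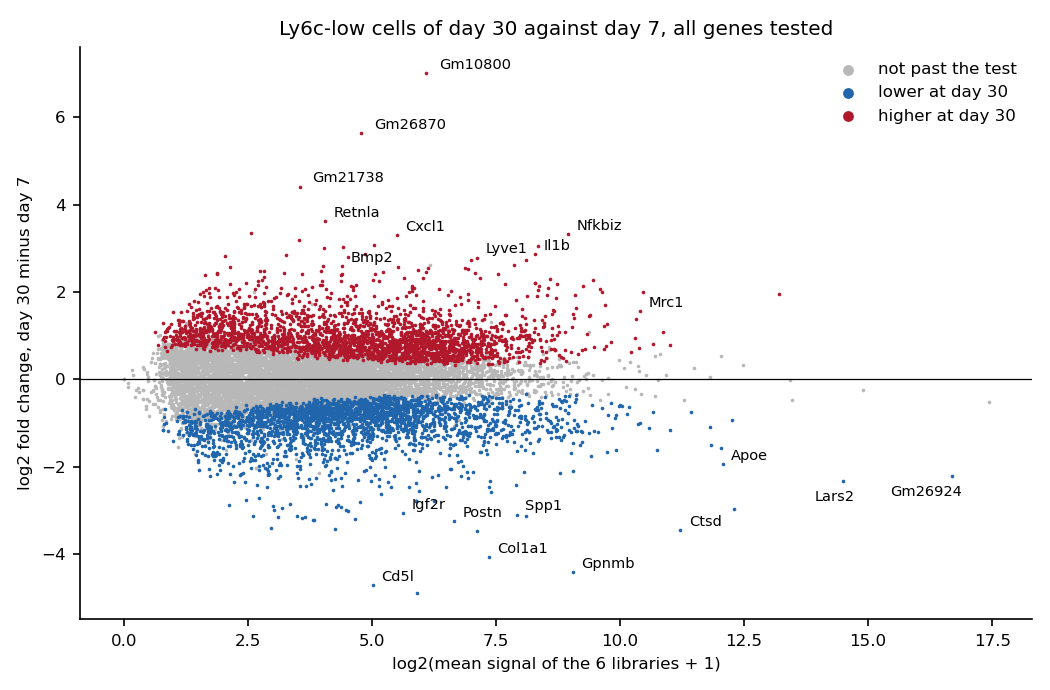
Change of every gene tested (log2 fold change, day 30 minus day 7, vertical axis) against its level (log2 of the mean signal of the 6 libraries + 1, horizontal axis); red genes were higher and blue genes lower at day 30, grey genes did not pass. The 2539 red and 2564 blue genes spread over the whole range of levels; Retnla (3.63) and Nfkbiz (3.34) stand among the largest rises and Cd5l (-4.71), Gpnmb (-4.41) and Ctsd (-3.45) among the largest falls.

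Depth was 5828904 to 13199576 reads per library at day 30 and 6219246 to 10902936 at day 7, recovered from the deposited values. The 3 day 30 libraries were more alike than those of any other group. Their log2 values correlated across genes at r = 0.990 to 0.993, against 0.933 to 0.971 within day 7, and their counts differed by more than sampling noise (chi-square per gene 2.27 to 3.00, against 20.3 to 104 at day 7). They were kept as 3 libraries, as labelled, although separate preparations of 1 pool would differ by more than sampling noise too. When the 3 were averaged and counted as 1 sample, 338 genes were higher (2.62%) and 477 lower (3.7%), all of them also called with 3. The second day 7 library stood apart on the second principal component, at -90.4, against -31.3 and -32.3 for the other day 7 libraries. The share of reads in the ribosomal transcripts mt-Rnr1 and mt-Rnr2, counted together with those in Lars2 and Gm26924, was 25.5% to 25.9% at day 30, against 35.4%, 47.7% and 40.3% at day 7. Gm26924 alone took 3.97% to 4.52% at day 30, against 11.4%, 23.8% and 11.4% at day 7. The predicted gene Gm10800 had a signal of 147, 126 and 132 in the day 30 libraries, against 0, 0 and 0.146 in those of day 7, and stayed at or under 0.944 at days 0 and 3. Gm26870 (52.0 to 54.8 at day 30, at most 0.292 at day 7) and Gm21738 (18.2 to 23.6 at day 30, at most 0.116 at day 7) behaved alike. What sets these 3 transcripts apart in the day 30 libraries was not tested.

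The general macrophage markers were abundant in both groups. The summed signal of the 13 macrophage markers was 15293, 15668 and 15041 at day 30 and 18614, 26247 and 24597 at day 7. Cx3cr1, the gene that the gate reads, had 132, 126 and 134 at day 30 and 142, 204 and 176 at day 7, a change of -0.39 ± 0.15 that did not pass (adjusted p = 0.0501). Csf1r, the receptor for the macrophage growth factor CSF-1, changed by -0.22 ± 0.18 (adjusted p = 0.33), Emr1, which encodes the F4/80 antigen, by -0.36 ± 0.21 (adjusted p = 0.19), and the integrin gene Itgam by -0.03 ± 0.15 (adjusted p = 0.87). None of these 3 passed. Of the 13 markers, 6 fell and 1 rose. The largest of the falls was in Cd68, a glycoprotein of late endosomes and lysosomes, with 385, 410 and 375 at day 30 and 739, 1168 and 898 at day 7 (-1.23 ± 0.17, adjusted p = 0.00011). Cd14, the co-receptor for bacterial lipopolysaccharide, was the 1 that rose, with 336, 340 and 338 at day 30 and 163, 192 and 149 at day 7 (1.01 ± 0.19, adjusted p = 0.0011).

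Ly6c2, which encodes the antigen used to gate the cells as low, had 2.81, 2.40 and 3.23 at day 30, against 2.88, 26.7 and 22.2 at day 7. The first day 7 library lay within the day 30 range and the other two above it, and the change of -1.84 ± 0.74 did not pass (adjusted p = 0.060). In the Ly6c-high cells of day 3 the gene stood at 620 to 1004. Ccr2, the receptor that draws monocytes out of the bone marrow, had 426, 418 and 421 at day 30, against 402, 375 and 713 at day 7 (-0.17 ± 0.23, adjusted p = 0.57). Of 22 genes of Ly6c-high monocytes, which include these, 9 fell (40.9%) and 2 rose (F13a1 and the chitinase-like Chi3l3, 2.09), with a median of -0.84. Fn1, the matrix protein fibronectin, had 149, 152 and 149 at day 30, against 530, 1213 and 453 at day 7 (-2.14 ± 0.44, adjusted p = 0.0017), and Cd300lf (-1.95), a receptor of myeloid cells, and Vcan (-1.39), the proteoglycan versican, fell too. The summed signal of the 22 overlapped between the groups, with 1946, 1943 and 1986 at day 30 and 1893, 2672 and 2459 at day 7, far under the 10869 to 16193 of the day 3 cells. The 9 falls were 4 without any 1 of the day 30 libraries, 5 without the second and 6 without the third day 7 library, 12 without the first, and 1 with day 30 as 1 sample.

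Genes known from lipid-laden macrophages fell. Of its 28 genes, all of which were tested, 21 fell and 2 rose, with a median change of -1.47. These counts stand against 19.9% lower and 19.7% higher among all genes. The summed signal of the 28 genes was 6949, 7076 and 6982 at day 30, against 20999, 26507 and 22819 at day 7, and 7180 to 8564 in uninjured hearts. Since these are bulk samples, fewer cells of a type and less RNA of it per cell cannot be told apart, here and in all that follows.

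Gpnmb (chr6:49036546-49070929, plus strand, GRCm38), a transmembrane glycoprotein of lysosome-rich macrophages, had 46.9, 42.7 and 47.5 at day 30, against 800, 1300 and 933 at day 7. All day 30 values lay far below the lowest day 7 value, and the change was -4.41 ± 0.45 (adjusted p = 1.7e-05). Cd5l (chr3:87357881-87371073, plus strand), a secreted protein known for keeping macrophages alive, had 1.40, 1.13 and 1.46 at day 30, against 43.8, 59.9 and 81.5 at day 7. At -4.71 ± 0.51 (adjusted p = 2.6e-05) it was the largest fall among named genes that averaged 10 or more in the 6 libraries, and its reads in uninjured hearts came to a signal of 0, 0 and 0.543. Spp1 (chr5:104435118-104441050, plus strand), which encodes the matrix and cytokine protein osteopontin, had 46.8, 52.3 and 50.5 at day 30, against 404, 426 and 475 at day 7 (-3.10 ± 0.34, adjusted p = 2.9e-05). It was higher still in the day 3 cells, at 663 to 1883.

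The lipid sensor and lipid carriers of this set moved with them. Trem2, the receptor through which macrophages sense lipids and lipoproteins, had 45.8, 48.3 and 46.1 at day 30, against 245, 389 and 238 at day 7 (-2.57 ± 0.28, adjusted p = 2.9e-05). Its day 30 values lay close to the 39.3 to 44.5 of uninjured hearts. Apoe, the apolipoprotein that takes up exported cholesterol, had 1794, 1810 and 1710 at day 30, against 6185, 8009 and 6349 at day 7 (-1.94 ± 0.20, adjusted p = 2e-05). Apoc2 (-2.93), the cofactor of lipoprotein lipase, Fabp5 (-2.80), a fatty acid carrier, and Lgals3 (-2.42), which encodes galectin-3, also fell. So did Soat1 (-1.44), which stores cholesterol as esters, and Plin2 (-0.96), a coat protein of lipid droplets. Lpl, the lipoprotein lipase itself, had 174, 176 and 181 at day 30 and 168, 134 and 185 at day 7, and the tetraspanin gene Cd9 79.4 to 85.3 at day 30 and 79.8 to 106 at day 7. Both groups overlapped for these genes, which did not pass (Lpl 0.14, Cd9 -0.13).

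The 2 members that rose were the scavenger receptors Cd36 (0.96 ± 0.31, adjusted p = 0.025) and Msr1 (0.39 ± 0.12, adjusted p = 0.022). Both calls were lost when some single libraries were left out, and Msr1 turned to -0.21 once trends on GC content and transcript length were removed. The 21 falls were 20 or 21 without any 1 of the 6 libraries and 20 with day 30 counted as 1 sample.

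Genes of cholesterol export under the liver X receptors, the nuclear receptors that sense oxidized cholesterol, fell as well. Of 17 members, 10 fell and 1 rose, with a median of -0.72. Apoe and Apoc2 above belong to this list too. Abcg1, a cholesterol exporter, had 36.2, 40.7 and 37.7 at day 30, against 110, 140 and 123 at day 7 (-1.68 ± 0.14, adjusted p = 4.6e-06), and Abca1, the other main exporter, had 317, 321 and 323 at day 30, against 462, 491 and 471 at day 7 (-0.56 ± 0.18, adjusted p = 0.021). Nr1h3, which encodes the receptor LXR alpha, fell by 1.41 on the log2 scale. When day 30 counted as 1 sample, 3 of the 10 falls passed. Cholesterol synthesis, the opposite branch of the same balance, went no single way. Of 23 genes 5 rose and 5 fell (21.7% each, near the 19.7% and 19.9% of all genes), with a median of 0.06. The 5 rises were 2 without any 1 of the day 30 libraries and 3 without the first day 7 library, and the 5 falls were 3 without the second day 7 or the third day 30 library.

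Lysosomal genes fell over most of the list. Of 42 hydrolases and membrane proteins, 31 fell and 2 rose, with a median of -1.02. The sum of their signal was 11756, 11858 and 11911 at day 30, against 24675, 31755 and 27008 at day 7, and 12547 to 14196 in uninjured hearts. Ctsd, Cd63, Ctsb, Ctsl, Lipa and Npc2 stand both here and among the lipid genes, so the lists are not independent. Ctsd (chr7:142375911-142388038, minus strand), the aspartic protease cathepsin D, had 388, 393 and 387 at day 30, against 3746, 5738 and 3639 at day 7. This fall of 3.45 ± 0.20 on the log2 scale (adjusted p = 8.4e-08) brought it close to the 315 to 336 of uninjured hearts.

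Several kinds of enzyme were among the other falls. Of the proteases Lgmn, the asparagine endopeptidase, fell by 1.51, and Ctsb, the abundant cathepsin B, had 1886, 1939 and 1916 at day 30, against 4868, 5490 and 5898 at day 7 (adjusted p = 8.7e-05). Galns (-2.25), a sulfatase, and Naglu (-2.03), a glucosaminidase, both of which act on glycosaminoglycans, fell, and Hexa (-1.36), which acts on gangliosides, fell too. Psap, the precursor of the saposins that help lipid hydrolases, had 846, 823 and 829 at day 30, against 2405, 3193 and 2225 at day 7 (-1.63 ± 0.17, adjusted p = 2.2e-05). Lipa, the acid lipase that frees cholesterol from its esters, had 257, 267 and 264 at day 30, against 578, 662 and 735 at day 7 (-1.32 ± 0.17, adjusted p = 6.9e-05). Lamp2, a membrane protein, had 825, 850 and 907 at day 30 and 822, 653 and 1122 at day 7, with overlapping groups (0.03 ± 0.18, adjusted p = 0.92). The sphingolipid enzymes Asah1, acid ceramidase (-0.04 ± 0.18, adjusted p = 0.88), and Smpd1, acid sphingomyelinase (-0.55 ± 0.21, adjusted p = 0.054), did not pass. The 2 that rose, Ctsc (0.62) and Ids (0.63), did not pass once GC and length trends were removed.

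Igf2r, the mannose 6-phosphate receptor that carries new hydrolases to the lysosome, was among the 15 largest falls. It had 9.20, 8.76 and 9.19 at day 30, against 76.9, 128 and 57.8 at day 7 (-3.06 ± 0.33, adjusted p = 2.4e-05), and 1.85 to 5.98 in uninjured hearts. The proton pump that acidifies the lysosome had 12 of 17 subunit genes lower and 0 higher, with a median of -0.72. At an unadjusted p under 0.05, and with edgeR or DESeq2, the number higher was also 0, but it was 1 without the third day 7 library. Atp6v0e, of the membrane sector, had 49.1, 44.4 and 52.5 at day 30, against 99.2, 143 and 142 at day 7 (-1.36 ± 0.16, adjusted p = 4.3e-05), and Atp6v1a, the catalytic subunit, had 160, 154 and 162 at day 30, against 330, 344 and 324 at day 7 (-1.06 ± 0.14, adjusted p = 0.00011). Atp6v0d2, 19.6, 19.8 and 18.3 at day 30 and 28.9, 14.0 and 29.9 at day 7, did not pass. Of the hydrolase falls 23, and of the pump falls 5, passed with day 30 as 1 sample.

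Many lysosomal genes carry the E-box TCACGTGA, a palindrome bound by the factors TFEB and TFE3. It was looked for on both strands in RefSeq promoters (GRCm38.p6, 250 bases before to 50 after the start), which were available for 9050 of the tested genes. It stood in 3 of 24 promoters of hydrolase genes that fell (12.5%; Ctsd, Ctsa, Cln3) and in 3 of 9 of pump genes that fell (33.3%; Atp6v0e, Atp6v0d1, Atp6v1a), against 2.30% of all 9050. Over all members, changed or not, the share was 4 of 33 hydrolase genes (12.1%) and 3 of 12 pump genes (25%). A match is a description of the letters and no evidence of binding. The promoters of the largest falls with a match are shown to place the motif, in capitals, which begins 99 bases before the start of Ctsd (chr7:142387778-142388077, minus strand) and at base 3 of the transcript of Atp6v0e (chr17:26676146-26676445, plus strand).
Ctsd: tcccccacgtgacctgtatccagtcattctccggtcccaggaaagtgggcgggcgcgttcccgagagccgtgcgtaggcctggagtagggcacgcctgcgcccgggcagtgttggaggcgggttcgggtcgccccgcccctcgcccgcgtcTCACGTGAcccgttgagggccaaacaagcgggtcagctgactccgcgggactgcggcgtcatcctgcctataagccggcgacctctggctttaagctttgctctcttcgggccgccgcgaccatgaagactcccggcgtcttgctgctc
Atp6v0e: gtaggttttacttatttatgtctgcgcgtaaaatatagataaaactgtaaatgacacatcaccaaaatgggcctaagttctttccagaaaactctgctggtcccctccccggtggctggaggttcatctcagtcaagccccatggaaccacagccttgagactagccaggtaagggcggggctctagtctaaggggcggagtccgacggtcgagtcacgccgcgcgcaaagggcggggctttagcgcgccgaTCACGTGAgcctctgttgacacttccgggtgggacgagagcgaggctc
In Gpnmb and Trem2, the letters of the AP-1 motif TGANTCA were found, which makes 2 of 18 lipid genes that fell (11.1%), against 3 of 22 over all lipid genes (13.6%) and 6.27% of all promoters.

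Matrix transcripts and markers of fibroblasts fell together. Of 17 matrix glycoproteins and their receptors, 15 fell and 0 rose (0 also at an unadjusted p under 0.05 and with edgeR or DESeq2), with a median of -1.39. Spp1 and Lgals3 of this list stand also among the lipid genes, and Fn1 and Vcan among those of Ly6c-high monocytes, so these lists are not independent. Sparc, a collagen-binding protein of healing tissue, had 45.2, 46.4 and 41.2 at day 30, against 268, 1021 and 220 at day 7 (-3.12 ± 0.53, adjusted p = 0.00049). Tenascin C (Tnc), a matrix protein of wound edges, had 0.624, 0.424 and 0.634 at day 30, against 8.93, 26.5 and 8.91 at day 7 (-3.16 ± 0.34, adjusted p = 2.6e-05). Leaving out any 1 of the day 30 libraries left 11 falls. For both Sparc and Tnc the second day 7 library was the highest. Without it 11 of the 17 fell, and with day 30 as 1 sample 6 did.

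Among 19 fibroblast markers, 13 fell and 1, Fap, rose, with a median of -1.82. Their summed signal was 208, 218 and 214 at day 30, against 916, 2612 and 663 at day 7, and 56.5, 148 and 161 in uninjured hearts. None of the 19 was at 0 in all 3 libraries of either group. Col1a1 (chr11:94936224-94953042, plus strand), a chain of type I collagen, had 10.8, 14.1 and 11.4 at day 30, against 155, 693 and 95.4 at day 7 (-4.07 ± 0.55, adjusted p = 0.0001). Postn, the scar protein periostin, had 14.7, 18.8 and 18.8 at day 30, against 178, 257 and 113 at day 7 (-3.25 ± 0.30, adjusted p = 1.1e-05). Dcn, which encodes decorin and marks fibroblasts at rest as well, had 64.0, 63.0 and 63.1 at day 30, against 66.6, 154 and 66.3 at day 7, and did not pass (-0.47 ± 0.34, adjusted p = 0.28). Fap lost its call when some single libraries were left out. Without the second day 7 library 11 markers fell, and with day 30 as 1 sample 10 did. How far the matrix genes rest on RNA of fibroblasts in the sorted cells was not tested.

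Markers of other heart cells were also lower at day 30. The 13 cardiomyocyte markers measured summed to 26.7, 27.1 and 27.1 at day 30, against 88.7, 221 and 112 at day 7. Of the 12 tested, 9 fell and 0 rose. Myh6, the heavy chain of cardiac myosin, had 1.01, 1.13 and 1.39 at day 30, against 15.1, 29.6 and 12.9 at day 7 (-3.13 ± 0.49, adjusted p = 0.00028), and 8.84 to 59.2 in uninjured hearts. The 9 falls came to 6 without the second day 7 library, 5 without the second day 30 library and 2 with day 30 as 1 sample. The 10 endothelial markers summed to 37.4, 31.9 and 36.2 at day 30, against 68.9, 182 and 96.0 at day 7. Of these 4 fell, but 0 did without the second day 7, the second day 30 or the third day 30 library. The 9 mural markers summed to 36.7, 31.2 and 33.7 at day 30, against 71.2, 166 and 56.5 at day 7, with 3 falls, the largest in Acta2 (-3.20), smooth muscle actin; the falls were 2 without the second and 5 without the third day 7 library. Of 5 mast cell markers tested 4 fell, the chymase gene Cma1 (-1.73) most. The 6 measured summed to 3.04, 2.54 and 3.61 at day 30, against 19.5, 10.5 and 13.7 at day 7. Tpsb2 was at 0 in all 3 day 30 libraries. No marker of these 4 lists rose, by limma, at an unadjusted p under 0.05, or with edgeR or DESeq2.

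For markers of other blood cells the share that fell lay on both sides of the 19.9% over all genes. It was 0% for dendritic cells, 11.1% for T and NK cells, and 25% each for neutrophils and B cells, with 4 markers tested in each. Of 11 dendritic cell markers 0 passed in either direction, also at an unadjusted p under 0.05 and with edgeR or DESeq2, though 1 was higher without the second day 7 library and 2 without the third. The 5 neutrophil markers measured, 4 of them tested, summed to 63.6, 64.4 and 60.2 at day 30, against 97.8, 152 and 137 at day 7. Of these 1 fell, the growth factor receptor Csf3r (-1.12), which made up most of the sum, while the abundant neutrophil transcripts S100a8 and S100a9 stood at 1.13 to 2.18 at day 30 and 0.908 to 7.30 at day 7. The 13 markers of T and NK cells measured summed to 32.1, 31.8 and 31.8 at day 30, against 60.4, 42.8 and 78.3 at day 7. Of the 9 tested, 1 fell (Cd4, -0.81). Of 4 markers of B cells 1 fell (Cd79b, -0.92), a call that was lost without some single libraries, and 3 were lower with edgeR or DESeq2; their median was -0.88. Ighm, the heavy chain of immunoglobulin M and the most abundant of the 4, overlapped between the groups, with 230, 241 and 227 at day 30 and 193, 313 and 269 at day 7. Of 8 markers of patrolling monocytes 3 rose (37.5%, against 19.7% of all genes) and 0 fell, with a median of 0.04. The rises were Nr4a1, which is also an early response gene, Emr4 (1.45) and Cd300ld (0.62). Of those that did not pass, Spn (-0.30), Treml4 (-0.35), Itgal (-0.13) and Eno3 (-0.53) were lower and Ace (0.20) higher. At an unadjusted p under 0.05, and without the first or the third day 7 library, 1 was lower.

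**Figure D2:**
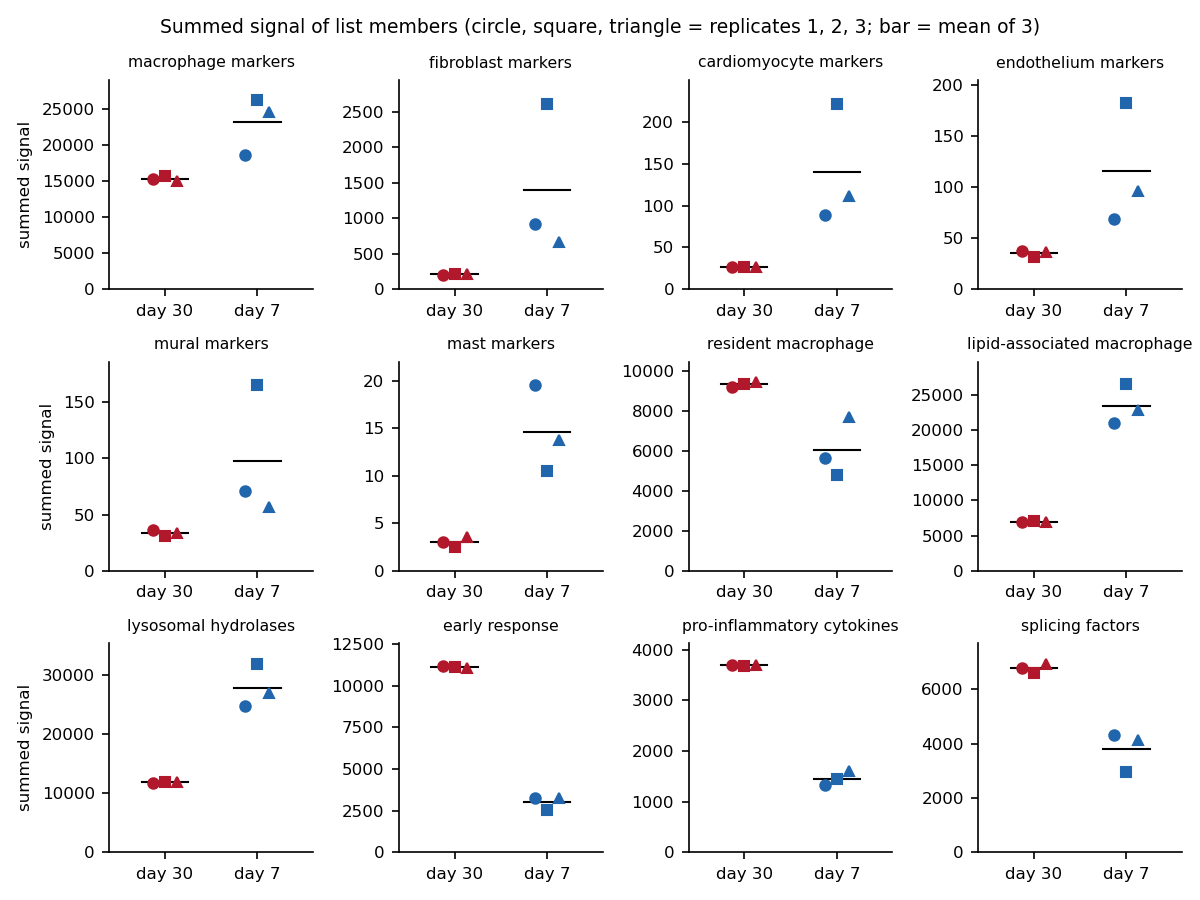
Summed signal of all measured members of 12 gene lists, tested or not, in each library (vertical axes, linear from 0). Day 30 is left in red and day 7 right in blue. Circles, squares and triangles are replicates 1, 2 and 3 and bars the mean of 3. Day 30 libraries lie close together in every panel; the second day 7 library is highest in the fibroblast (2612), cardiomyocyte (221), endothelial (182) and mural (166) sums.

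Matrix proteases split. Of 18 proteases and inhibitors 5 fell and 5 rose (27.8% each, against 19.9% and 19.7% of all genes), with a median of -0.12. The rises were 3 without any 1 of the day 30 libraries. Mmp14, the membrane-bound collagenase, had 14.6, 19.6 and 14.5 at day 30, against 81.9, 152 and 80.3 at day 7 (-2.56 ± 0.28, adjusted p = 2.9e-05). Adam8 (-2.38), the neutrophil collagenase gene Mmp8 (-2.17), the inhibitor gene Timp1 (-2.08) and the gelatinase gene Mmp2 (-1.33) fell with it. The interstitial collagenase gene Mmp13 went the other way, with 115, 106 and 118 at day 30, against 29.4, 10.6 and 23.7 at day 7 (2.47 ± 0.29, adjusted p = 4.9e-05), near the 108 to 207 of uninjured hearts. Adamts1, which cuts proteoglycans, rose by 1.80 and the gelatinase gene Mmp9 by 1.77.

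Genes of resident heart macrophages rose. Of 28 members, all tested, 20 rose and 0 fell, with a median of 0.96 that is the same with Cd209g, which had no read in the day 7 libraries, set to its lower bound. At an unadjusted p under 0.05, 1 member (Ccl8) was lower, and with edgeR and DESeq2 0 were. Leaving out the first day 7 library also gave 1 fall. The list summed to 9205, 9372 and 9480 at day 30, against 5655, 4800 and 7692 at day 7; in uninjured hearts it stood at 11314 to 13445.

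Lyve1 (chr7:110850607-110863239, minus strand), a hyaluronan receptor, had 238, 240 and 239 at day 30, against 31.2, 19.4 and 62.7 at day 7. Every day 30 value lay above the day 7 range (2.79 ± 0.36, adjusted p = 7.5e-05) and below the 458 to 575 of uninjured hearts. Timd4 (chr11:46810800-46844332, plus strand), a receptor for phosphatidylserine on dying cells, had 55.2, 57.2 and 57.0 at day 30, against 10.9, 5.78 and 21.2 at day 7 (2.24 ± 0.41, adjusted p = 0.00079), and 85.2 to 97.4 in uninjured hearts. Cd163, the receptor for haemoglobin bound to haptoglobin, had 231, 219 and 227 at day 30, against 55.6, 23.4 and 52.1 at day 7 (2.44 ± 0.34, adjusted p = 0.00014). These 3 receptors had their lowest day 7 value in the second library, the one that stood apart.

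Mrc1, the mannose receptor and the most abundant receptor of the list, had 1998, 2019 and 2007 at day 30, against 748, 463 and 906 at day 7 (1.56 ± 0.26, adjusted p = 0.00048), and 1666 to 2312 in uninjured hearts. Lectin genes Mgl2 (1.82), Clec10a (0.85) and Fcna (0.89), the complement receptor gene Vsig4 (1.38), the folate receptor gene Folr2 (0.88) and the transcription factor gene Maf (1.03) rose with it. F13a1, which encodes a subunit of coagulation factor XIII, had 764, 777 and 792 at day 30, against 277, 181 and 407 at day 7 (1.51 ± 0.22, adjusted p = 0.00021). This gene also stands among those of Ly6c-high monocytes above, so the lists are not independent. Members that did not pass included the growth factor gene Igf1 (453, 451 and 475 at day 30; 436, 289 and 423 at day 7), Gas6, a bridge to dying cells (-0.07), and the selenium carrier Sepp1 (0.27). Without any 1 library 17 to 21 members rose, and 10 with day 30 as 1 sample.

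Retnla (chr16:48842551-48844461, plus strand), a secreted resistin-like protein known as a marker of alternative activation, was the largest rise among named genes at that level. It had 31.8, 27.4 and 29.2 at day 30, against 1.51, 0.462 and 3.07 at day 7 (3.63 ± 0.31, adjusted p = 6.2e-06), and 36.4 to 58.1 in uninjured hearts. The motif TGCTGA, known as part of the element that MAF factors bind, was looked for on both strands. It stood in 6 of 14 promoters of resident genes that rose (42.9%; Cbr2, Fcna, Folr2, Retnla, Timd4, Vsig4), and in the same share of all resident genes, 9 of 21, against 18.5% of all promoters. The promoter of Retnla (chr16:48842359-48842658, plus strand) is shown as that of the largest rise, with the motif, which reads TCAGCA on this strand, in capitals 47 bases before the start.
Retnla: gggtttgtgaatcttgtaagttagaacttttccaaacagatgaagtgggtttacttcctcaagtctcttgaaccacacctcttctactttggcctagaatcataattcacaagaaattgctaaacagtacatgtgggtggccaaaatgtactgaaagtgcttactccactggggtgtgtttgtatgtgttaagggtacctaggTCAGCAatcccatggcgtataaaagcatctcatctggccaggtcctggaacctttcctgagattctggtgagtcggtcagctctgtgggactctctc

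Alternative activation, the response of macrophages to interleukins 4 and 13, moved both ways. Of 17 members 9 rose and 4 fell, with a median of 0.85; Retnla, Ccl24, Mrc1, Mgl2 and Clec10a are shared with the resident list. Ccl24, a chemokine for eosinophils, had 26.8, 26 and 25.9 at day 30, against 3.63, 1.39 and 7.30 at day 7 (2.59 ± 0.32, adjusted p = 6e-05). Il10, the anti-inflammatory cytokine, had 29.4, 18.8 and 28.7 at day 30, against 5.75, 1.85 and 4.38 at day 7 (2.48 ± 0.31, adjusted p = 6.9e-05), and 2.52 to 5.41 in uninjured hearts. Arg1, the arginase that competes for the substrate of nitric oxide synthase, fell, with 3.59, 3.53 and 4.88 at day 30, against 36.9, 41.6 and 37.4 at day 7 (-3.00 ± 0.31, adjusted p = 1.9e-05), and 198 to 211 in the day 3 cells. Tgfb1, a driver of scar formation, fell by 1.32 and the interleukin receptor gene Il4ra by 0.96. With day 30 as 1 sample, 5 of the rises and 1 of the falls passed.

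Receptors for dying cells and modified lipids were likewise divided, with 9 of 23 higher and 8 lower and a median of 0.05. The 9 rises were 5 without any 1 of the day 30 libraries, and 5 after trends on GC content and length were removed. Besides Timd4 and Cd163, the oxidized lipoprotein receptor gene Olr1 (1.73) and the lectin gene Colec12 (1.36) rose. Itgb5 (-1.66), an integrin chain that binds the bridging protein encoded by Mfge8 (-1.39), and Lrp1 (-1.21), a receptor for many ligands, fell. Mertk, the best known receptor of this kind on heart macrophages, had 102, 104 and 92.5 at day 30 and 110, 88.7 and 89.7 at day 7, with overlapping groups (0.05 ± 0.22, adjusted p = 0.87).

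**Figure D3:**
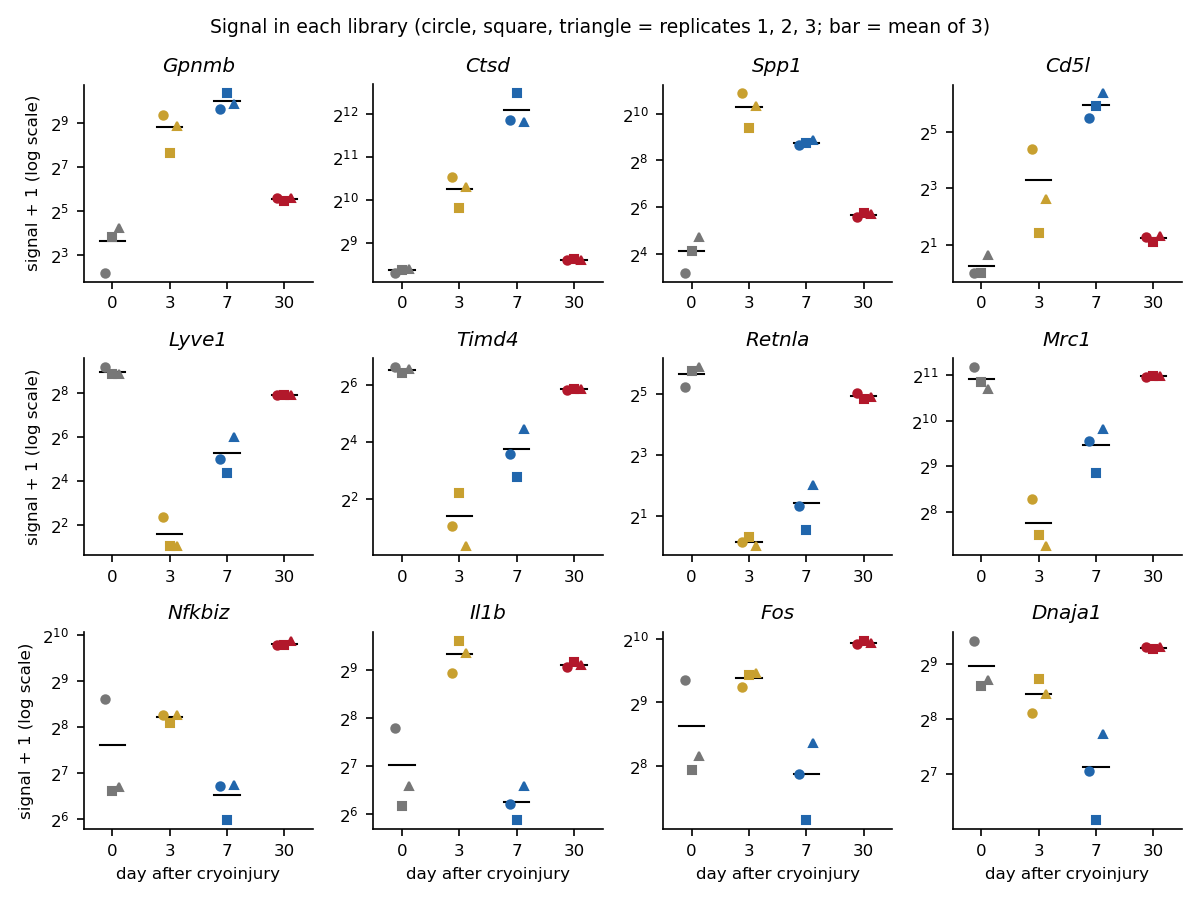
Signal + 1 of 12 genes in all 12 libraries (vertical axes on a log scale) by day after cryoinjury (horizontal axis; day 3 cells were sorted as Ly6c-high); circles, squares and triangles are replicates 1, 2 and 3 and bars the mean of 3. The top row holds lipid and lysosomal genes, highest at day 7 except Spp1, the second row resident genes, lowest at day 3, and the third row early response, cytokine and chaperone genes, in which the first day 0 library is the highest of its group.

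Early response genes, which cells switch on within minutes of a stimulus, rose almost throughout. Of 29 members tested, 26 rose and 0 fell, with a median of 1.71; 0 fell also at an unadjusted p under 0.05 and with edgeR or DESeq2. The 31 members measured summed to 11205, 11133 and 11082 at day 30, against 3246, 2561 and 3291 at day 7. Uninjured hearts gave 9519, 3293 and 3818, so that 1 day 0 library lay near the day 30 level and the others near the day 7 level. These genes are known to respond to tissue handling, and whether the groups differed in handling was not tested.

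Nfkbiz (chr16:55811375-55838899, minus strand), a nuclear co-factor of NF-kappa B that is itself induced by it, had 879, 885 and 937 at day 30, against 104, 62.1 and 106 at day 7 (3.34 ± 0.38, adjusted p = 3.6e-05), and 389, 96.9 and 102 in uninjured hearts. Fos, a subunit of AP-1, had 971, 1002 and 979 at day 30, against 235, 141 and 328 at day 7 (2.15 ± 0.32, adjusted p = 0.00019). Egr1 (2.19), Egr2 (2.33), Fosb (2.41) and Atf3 (1.90), all transcription factors of the same wave, rose as well. The orphan receptor genes Nr4a1, Nr4a2 and Nr4a3 rose by 2.55, 3.02 and 3.08. Nr4a3 had 57.8, 55.5 and 59.0 at day 30, against 8.33, 4.16 and 5.84 at day 7 (adjusted p = 2.2e-05), and 3.56 to 10.2 in uninjured hearts, so here all 3 uninjured libraries lay near day 7.

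Several of the genes that rose put a brake on such signals. Tnfaip3, which encodes the ubiquitin-editing inhibitor A20 of NF-kappa B, had 477, 469 and 481 at day 30, against 81.4, 51.2 and 83.6 at day 7 (2.74 ± 0.45, adjusted p = 0.00042). Zfp36, whose protein destabilizes cytokine messages, had 2317, 2208 and 2225 at day 30, against 683, 513 and 499 at day 7 (2.01 ± 0.43, adjusted p = 0.0022). Dusp1, a phosphatase of MAP kinases, rose by 1.71 and Nfkbia, the inhibitor I kappa B alpha, by 1.46. Klf2 (2.58) and Klf4 (2.52), zinc finger factors that temper inflammatory genes in myeloid cells, rose too. Junb, Maff and Dusp2 did not pass (0.49, 1.14 and 0.46). Counting day 30 as 1 sample left 14 of the 26 rises.

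The cyclic AMP response element TGACGTCA, a palindrome, was found in 3 of 22 promoters of early response genes that rose (13.6%; Btg2, Dusp1, Ppp1r15a) and in 4 of 25 over all members (16%), against 3.66% of all promoters. The serum response element, in the single spelling CC, ATATTA and GG in a row, was in 0 of the 22 and in 0.0331% of all promoters. Btg2, which slows cell division, had 371, 376 and 364 at day 30, against 113, 69.2 and 146 at day 7 (1.81 ± 0.25, adjusted p = 0.00011). Its promoter (chr1:134079106-134079405, minus strand) is shown as that of the largest rise with a match, with the element in capitals 166 bases before the start.
Btg2: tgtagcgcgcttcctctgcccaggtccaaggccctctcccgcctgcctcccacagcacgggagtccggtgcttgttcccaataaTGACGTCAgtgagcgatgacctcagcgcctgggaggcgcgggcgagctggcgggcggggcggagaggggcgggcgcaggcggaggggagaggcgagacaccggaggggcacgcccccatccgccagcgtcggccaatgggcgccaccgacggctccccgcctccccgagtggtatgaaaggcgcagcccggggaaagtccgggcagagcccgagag

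Inflammatory cytokines and chemokines rose with the early response genes. Of 21 members 14 rose and 2 fell (1 without the second day 7 library or any 1 of the day 30 libraries), with a median of 1.65. They summed to 3710, 3683 and 3701 at day 30, against 1327, 1443 and 1599 at day 7, and 2565, 1464 and 1618 in uninjured hearts. Il1b (chr2:129364570-129371139, minus strand), the fever cytokine interleukin 1 beta, had 532, 566 and 546 at day 30, against 73.6, 57.9 and 94.8 at day 7 (2.87 ± 0.31, adjusted p = 2.5e-05). In uninjured hearts it had 220, 71.4 and 94.7, and in the day 3 cells 487 to 771.

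The chemokines for monocytes and for neutrophils both rose. Ccl2, the ligand of CCR2, had 247, 239 and 240 at day 30, against 41.6, 55.4 and 45.9 at day 7 (2.33 ± 0.18, adjusted p = 2.2e-06), and 76.3 to 126 in uninjured hearts. Ccl7 (2.74), another ligand of that receptor, rose with it. Cxcl2, which draws neutrophils, had 590, 570 and 586 at day 30, against 91.7, 57.1 and 64.0 at day 7 (3.05 ± 0.58, adjusted p = 0.001), and 539, 45.4 and 76.8 in uninjured hearts. Cxcl1 (3.31), Ccl3 (2.14), Ccl4 (1.78), Tnf (1.65) and Ptgs2 (2.32), the inducible cyclooxygenase, rose too. Ptgs2 had 107, 107 and 108 at day 30, against 24.2, 15.6 and 23.1 at day 7, and 11.1 to 24.8 in uninjured hearts. Ccl5, a chemokine for T cells, fell, with 10.9, 7.91 and 10.2 at day 30, against 28.9, 32.1 and 33.3 at day 7 (-1.61 ± 0.41, adjusted p = 0.0071). Il6 and Il18 did not pass (0.90 and 0.52). With day 30 as 1 sample 9 of the 14 rises passed.

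Heat shock genes and other chaperones showed rises of the same kind in part of the list. Of 24 members 9 rose and 2 fell, with a median of 0.43. They summed to 9375, 9100 and 9228 at day 30, against 5101, 4646 and 6418 at day 7, and 16391, 7616 and 7846 in uninjured hearts, where the first library was again the highest. Dnaja1, a co-chaperone of HSP70, had 634, 615 and 636 at day 30, against 133, 70.9 and 212 at day 7 (2.31 ± 0.31, adjusted p = 8.8e-05), and 684, 388 and 416 in uninjured hearts. Hsp90aa1, the inducible HSP90, rose by 1.86, Hspa5, the chaperone of the endoplasmic reticulum, by 1.46, and Hsph1, an exchange factor of HSP70, by 1.58. The pair Hspa1a and Hspa1b is nearly identical in sequence, so reads could be split between them: their changes of 1.64 and 2.21 are uncertain. The constitutive Hspa8 had 2135, 2108 and 2121 at day 30 and 1205, 1272 and 1827 at day 7, and did not pass (0.59 ± 0.24, adjusted p = 0.066). With day 30 as 1 sample 3 of the 9 rises passed.

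A heat shock element, spelled as GAA, TTC and GAA with any 2 bases between neighbours, was found on either strand in 2 of 8 promoters of chaperone genes that rose (25%; Hspd1, Hsph1) and in 3 of 19 over all members (15.8%), against 0.641% of all promoters. The promoter of Hsph1 (chr5:149636287-149636586, minus strand), which had 147, 133 and 141 at day 30, against 41.5, 40.1 and 59.0 at day 7, is shown with the element in capitals from base 37 of the transcript.
Hsph1: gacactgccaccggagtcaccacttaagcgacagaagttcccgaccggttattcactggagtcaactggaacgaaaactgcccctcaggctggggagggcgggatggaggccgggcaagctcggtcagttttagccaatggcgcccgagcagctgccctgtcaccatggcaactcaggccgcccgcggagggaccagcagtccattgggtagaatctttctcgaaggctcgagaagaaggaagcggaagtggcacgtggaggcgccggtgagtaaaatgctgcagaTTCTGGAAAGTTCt

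Genes of protein synthesis and energy metabolism fell as groups of modest changes. Of 76 cytoplasmic ribosomal protein genes 63 fell and 2 rose, with a median of -0.96, and their sum was 13799, 13419 and 13693 at day 30, against 22684, 27531 and 25682 at day 7. Rpl41 had 317, 301 and 304 at day 30, against 896, 1349 and 938 at day 7 (-1.76 ± 0.17, adjusted p = 1.7e-05). Many ribosomal protein genes have processed copies in the genome with which they can share reads. The 2 that rose, Rpl24 (1.05) and Rpl29 (1.04), were low for the list, at 38 to 42.9 and 13.4 to 14.9 at day 30.

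Of 54 nuclear genes of oxidative phosphorylation 40 fell and 0 rose, with a median of -0.78. At an unadjusted p under 0.05, 1 was higher, and with edgeR and DESeq2 0 were. Leaving out the first or the third day 7 library also gave 1 rise. Cox4i1, a subunit of cytochrome oxidase, had 67.9, 63.7 and 69.9 at day 30, against 150, 276 and 235 at day 7 (-1.65 ± 0.20, adjusted p = 6.3e-05). Of the 13 protein-coding mitochondrial genes 4 rose and 0 fell (0 also at an unadjusted p under 0.05 and with edgeR or DESeq2), but 0 rose without the second day 7 library or without the third day 30 library. Genes of glycolysis and the hypoxia response, counted together as glycolytic below, had 12 of 26 lower and 2 higher, with a median of -0.65. Tpi1, the triose phosphate isomerase, had 30.1, 31.8 and 31.5 at day 30, against 63.1, 114 and 93.3 at day 7 (-1.46 ± 0.20, adjusted p = 0.0001), and Aldoa (-1.43), Pkm (-1.42) and Gapdh (-1.22) fell as well. Vegfa, a hypoxia-induced growth factor for vessels, rose by 1.54 at a low level, with 6.94, 6.50 and 5.96 at day 30, against 1.97, 1.62 and 1.17 at day 7. Counting day 30 as 1 sample left 38 ribosomal, 18 oxidative and 7 glycolytic falls.

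Splicing factors rose. Of 33 members 22 rose and 0 fell, with a median of 0.82; at an unadjusted p under 0.05, 1 was lower, with edgeR 0 and with DESeq2 1. Hnrnph1, which binds runs of guanine in introns and exons, had 509, 498 and 508 at day 30, against 170, 89.6 and 159 at day 7 (1.90 ± 0.19, adjusted p = 1.9e-05). Tra2a (1.5), Tra2b (1.25), Srsf3 (1.01) and Srsf5 (1.01), all members of the serine and arginine rich family or close to it, rose. The second day 7 library, with the largest share of ribosomal transcripts, had the lowest sum of the list, 2946, against 4312 and 4138 in the other day 7 libraries. Without it 20 members rose, and with day 30 as 1 sample 7 did.

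**Figure D4:**
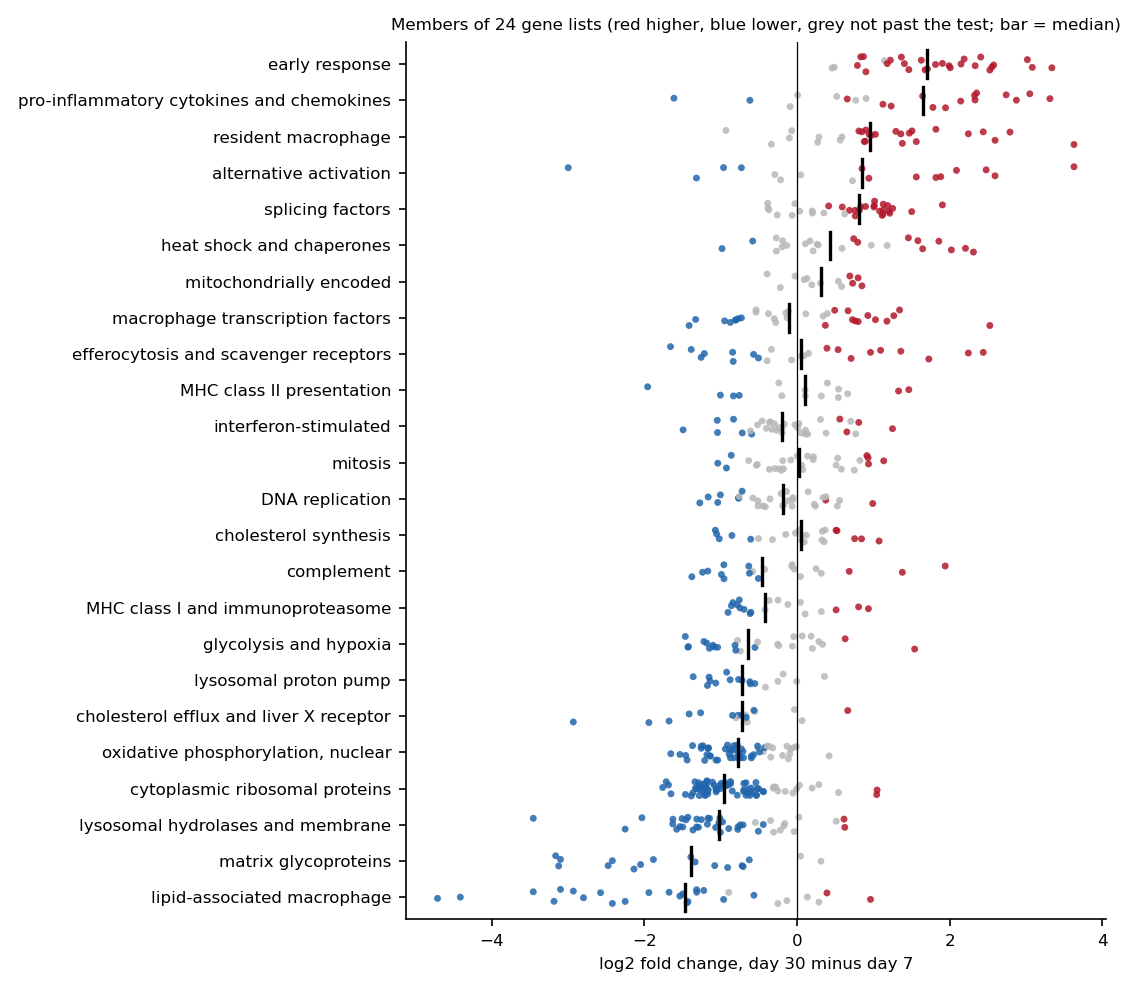
Log2 fold change, day 30 minus day 7 (horizontal axis), of each tested member of 24 gene lists; red members rose, blue members fell, grey members did not pass, and black bars mark the median of the list. Early response (median 1.71), cytokine (1.65) and resident macrophage genes (0.96) lie to the right, and lysosomal (-1.02), matrix (-1.39) and lipid-associated genes (-1.47) to the left.

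The direction of change followed the base composition of the transcripts. Genes that were higher at day 30 had a median GC content of 44.3% in their longest transcript and genes that were lower 53.6%, against 49.0% for all genes tested. Their median lengths were 4312 bases for higher and 2429 for lower genes, against 3294.5 for all. In the lowest of 10 bins of GC content 43.2% of the genes were higher and 2.67% lower; in the highest 3.38% were higher and 44.5% lower. After smooth trends on GC content and length were removed from each library, 3893 genes passed, 1798 higher and 2095 lower. Of the original calls 1382 of those higher (54.4%) and 1530 of those lower (59.7%) were among them.

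With that removal the medians shrank for splicing (0.82 to 0.44), ribosomal (-0.96 to -0.60), lysosomal hydrolase (-1.02 to -0.74) and oxidative genes (-0.78 to -0.60). They grew for lipid (-1.47 to -1.57), resident (0.96 to 1.22) and early response genes (1.71 to 1.90). The lists of ribosomal (55 lower), oxidative (37 lower), splicing (18 higher), lysosomal hydrolase (33 lower), lipid (21 lower), resident (22 higher) and early response genes (29 higher) kept most of their counts. Other lists did not: the mitochondrially encoded rises were 0 in place of 4, the falls of macrophage markers 3 in place of 6, of class I genes 5 in place of 9, of complement genes 5 in place of 9 and of cardiomyocyte markers 6 in place of 9, and the class II rises 7 in place of 2. The C1q genes C1qa, C1qb and C1qc, which had fallen by 0.96, 1.17 and 0.99, and the transcription factor gene Spi1 (-0.95) did not pass after it. What the relation to GC content stems from was not tested. The share of ribosomal transcripts also differed between the groups, and whether it is related to GC content was not tested.

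**Figure D5:**
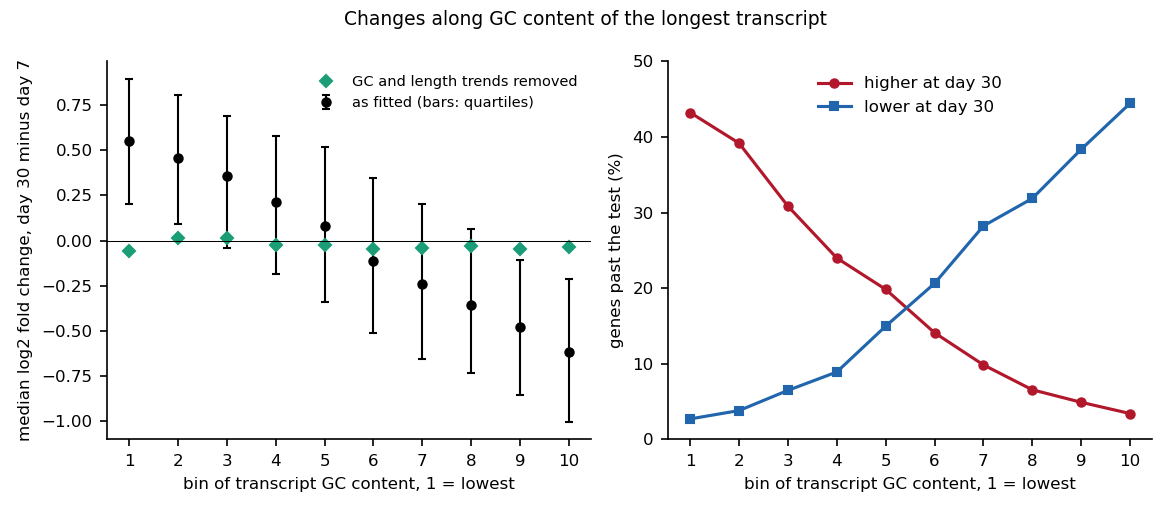
Left, median log2 fold change, day 30 minus day 7, in 10 bins of transcript GC content (1 is the lowest), as fitted (black, bars from the lower to the upper quartile) and after trends on GC content and length were removed (green); right, percent of genes higher (red) and lower (blue) at day 30 in the same bins. The median was 0.55 in the first bin and -0.62 in the last, and lay between -0.056 and 0.012 after removal.

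Antigen presentation and interferon genes moved in both directions. Of 15 class II presentation genes 2 rose and 4 fell (13.3% and 26.7%, against 19.7% and 19.9% of all genes), with a median of 0.11. The 2 rises were 4 without the third day 7 library, 5 with median centring, and 7 (with 3 falls and a median of 0.48) after GC and length removal. The class II chains H2-Aa (4792, 5149 and 4840 at day 30; 2470, 3649 and 4275 at day 7) and H2-Ab1 (1975, 2134 and 1869 at day 30; 1320, 2401 and 1988 at day 7) did not pass. The co-stimulatory ligands Cd86 (139, 131 and 140 at day 30; 63.7, 27.7 and 65.9 at day 7) and Cd80 rose by 1.46 and 1.33, and H2-Oa, a chain that restrains peptide loading, fell by 1.96. Of 19 class I and immunoproteasome genes 9 fell and 3 rose, with a median of -0.42; B2m, the shared light chain, had 3630, 3562 and 3720 at day 30 and 3179, 3042 and 4534 at day 7 and did not pass. Class I genes are alike in sequence, so reads could be split among them. Of 35 interferon-stimulated genes 6 fell and 4 rose (17.1% and 11.4%, both below the shares over all genes; the rises were 2 to 7 without any 1 library), with Irf7 (-1.49) and Oas2 (1.25) the largest.

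Complement genes fell more often than they rose, 9 against 3 of 20, but 5 fell without the second day 30 library and 6 without the second day 7 library. Among cell division genes the calls were near or under the shares over all genes. Of 31 replication genes 7 fell (22.6%, against 19.9%) and 2 rose, and of 28 mitosis genes 3 fell and 4 rose (7 without the first day 7 library), among them the helicase subunit gene Mcm5 (-1.04) and the mitotic kinesin gene Kif23 (1.14). With day 30 as 1 sample 0 members of either list passed.

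Transcription factors of macrophages were split, with 12 of 31 higher and 8 lower (38.7% and 25.8%, against 19.7% and 19.9% of all genes). The largest rise, Klf4 (2.52), is shared with the early response genes. The largest fall, Nr1h3 (-1.41), is shared with the liver X receptor genes. The 12 rises were 8 without the third day 30 library, and the 8 falls were 5 without the second library of either group. Irf4, a partner of the alternative programme, had 58.9, 60.2 and 61.0 at day 30, against 24.4, 17 and 29.5 at day 7 (1.34 ± 0.21, adjusted p = 0.00028). Spic (1.27), known from macrophages that recycle iron, and Mef2c (1.18) rose too. Cebpa, a factor of myeloid differentiation, had 34.9, 34.2 and 39.6 at day 30, against 74.2, 135 and 78.4 at day 7 (-1.33 ± 0.20, adjusted p = 0.00023), and Irf8 fell by 0.80. Of 26 genes of Toll-like receptor signalling 6 rose (23.1%) and 5 fell (19.2%), near the 19.7% and 19.9% of all genes, with a median of -0.04. The 5 falls were 2 without the third and 3 without the first or second day 30 library, and 3 without the second day 7 library. Besides Tnfaip3 and Cd14, Ly96, the partner of TLR4 also called MD-2, rose by 1.77. Of 23 Fc and C-type lectin receptors 8 rose and 5 fell (34.8% and 21.7%, against 19.7% and 19.9% of all genes). The rises were 5 without the second day 7 library, and without the first or the third day 30 library. Among the rises was Clec4e (1.49), a sensor of mycobacterial glycolipid. It had 22.5, 23.6 and 22.3 at day 30, against 5.30, 9.25 and 8.33 at day 7.

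Ferritin genes and some antioxidant genes fell. Ftl1, the light chain of ferritin, had 2070, 2155 and 1990 at day 30, against 4769, 8445 and 5685 at day 7 (-1.56 ± 0.22, adjusted p = 0.00013), and Fth1, the heavy chain, had 2374, 2260 and 2265 at day 30, against 4787, 4943 and 5088 at day 7 (-1.10 ± 0.20, adjusted p = 0.00087). Tfrc, the transferrin receptor, whose message is stabilized when cell iron is low, went the other way, with 43.3, 40.7 and 43.0 at day 30, against 12.3, 16.9 and 24 at day 7 (1.26 ± 0.20, adjusted p = 0.0003). Of 16 iron and heme genes 5 fell and 2 rose (31.25% and 12.5%, against 19.9% and 19.7% of all genes). Of 23 genes of the antioxidant response 12 fell and 3 rose, with a median of -0.59. The 3 rises were 1 without the second day 7, the first or the third day 30 library, and Cat, catalase, did not pass (0.08 ± 0.18, adjusted p = 0.74). Gpx4, which reduces lipid peroxides, had 14.7, 11.2 and 13.9 at day 30, against 43.8, 55.5 and 39.7 at day 7 (-1.73 ± 0.18, adjusted p = 2e-05). Cyba, the small chain of the phagocyte oxidase, fell by 1.73.

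A few of the largest rises belonged to none of these lists. Bmp2, a growth factor of the TGF beta superfamily, had 34.5, 33.9 and 37.7 at day 30, against 6.06, 5.32 and 3.80 at day 7 (2.60 ± 0.26, adjusted p = 1.7e-05), and 13.8 to 26.3 in uninjured hearts. Slc15a2, a peptide transporter, had 46.6, 53.7 and 48.4 at day 30, against 7.72, 2.20 and 11 at day 7 (2.86 ± 0.44, adjusted p = 0.00025). Ifrd1, a transcriptional co-regulator, had 391, 387 and 396 at day 30, against 96.4, 31.4 and 82.8 at day 7 (2.61 ± 0.44, adjusted p = 0.00045), and 45.5 to 196 in uninjured hearts. Fam71a, whose role is not well known, rose by 3.18. Of growth and angiogenic factors 6 of 21 fell and 3 rose (28.6% and 14.3%, against 19.9% and 19.7% of all genes). Tgfb3 (-1.58) and Areg (1.51) were among them. The falls were 4 to 7 without any 1 library.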

How the data were processed

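RNA was measured in 12 libraries of sorted heart macrophages, of which the 3 of day 30 and 3 of day 7 were compared. Per the submitters' processing notes, the tools were cutadapt 1.3, RSEM 1.2.20 and edgeR 3.14.0 with genome build GRCm38; strand and gene model were not given in the sources used here. The authors deposited a normalized linear signal for 14460 genes and its log2, floored at 0 for signals under 1; the deposited log2 columns equalled this in all 173520 values within 1e-09 and were not used further. Every signal was a whole multiple of 1 step per library, so whole reads were recovered for 100% of the 173520 values (within 0.02 reads). Where no read was found the floor is 3 reads (signal 0.190 to 0.543, depending on the library), which covers counting error only. TMM factors were 1.19 to 1.20 at day 30 and 0.797 to 1.07 at day 7.

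The 12879 genes averaging a signal of 1 or more across the 12 libraries were fitted as log2(signal + 1) with limma 3.58.1 in R 4.3.3 (trend, 4 group means, 8 residual degrees of freedom, no pairing). Of the identifiers, 14232 (98.4%) had an entry in GENCODE M21 (GRCm38); GC content and length of the longest transcript were known for 12714 tested genes (98.7%). Symbols follow the deposited table; 15 that had been turned into dates were restored by identifier, and 63 genes had none. Promoter sequences are from RefSeq (GRCm38.p6) and were matched by symbol. Python 3.11.15 with scipy 1.17.1 and matplotlib 3.10.9 was used for sums and figures.

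The 44 gene lists (984 entries, 955 found), like the comparison itself, were chosen with earlier results of these data known, so counts over a list are a description, and no test of a list is given. Named genes were, in each direction, the 15 called genes of largest change with groups that do not overlap, an average signal of 10 or more in the 6 libraries and a symbol that is no clone name; up to 5 called members of each list in each direction; and a fixed set of macrophage, Ly6c and ribosomal transcripts. Of these 268 genes a part is printed; other list members are given with their values where they show the spread of a list. Promoters printed are those of the called member with the largest change whose promoter holds the motif of its list.

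On simulated data at these depths, with 12879 genes and 50 genes changed by each size, the test recovered 6% at 1.5-fold, 26% at 2-fold, 88% at 4-fold and 96% at 8-fold, and 6.09% of its calls were unchanged genes. Far fewer genes changed there than the 39.6% called in the data. Each simulated gene also had the same spread in all groups and no trend on GC content. These shares therefore do not carry over to the data. Alternatives were 0.1 or 5 as pseudocount, an average signal of 5 or more or no filter, quantile normalization, median centring, the 6 libraries alone, a replicate block, leaving out each library, day 30 averaged to 1 sample, edgeR 4.0.16 (quasi-likelihood) and DESeq2 1.42.0 on the recovered reads, a change of at least 2-fold, and removal of trends on GC content and transcript length (splines with 5 degrees of freedom per library). Sums were also formed after scaling to a library total that leaves out mt-Rnr1, mt-Rnr2, Gm26924 and Lars2.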

Additional observations from a re-analysis of the deposited data

How the results depend on the processing

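The total of 5103 calls was 4394 to 5293 with pseudocounts of 0.1 or 5, without a filter or with an average of 5 or more, with quantile normalization and with median centring, and 4386 with the 6 libraries alone. edgeR called 5076 genes and DESeq2 5392. Median centring gave a median change of 0.10 over all genes and put 59.3% of the calls at higher, against 49.8%. Without 1 library, 1700 to 2779 genes were higher and 1774 to 2723 lower. The total of 5103 calls fell to 3634, 3622 and 3474 without day 30 replicates 1, 2 and 3. It fell to 3944 without day 7 replicate 2, but rose to 5502 and 5331 without day 7 replicates 1 and 3. How far the calls rest on the likeness of the day 30 libraries was not tested. Day 30 averaged to 1 sample left 338 higher and 477 lower, a limit of at least 2-fold left 997 and 1068, and GC and length removal left 1798 and 2095; the cause of these differences was not tested, beyond the fewer samples of the first and the stricter limit of the second. Replicate numbers did not pair the libraries: same-numbered libraries of day 30 and day 7 had correlations of 0.0065, 0.0698 and 0.106 between their deviations from the group means, and the fit with the number as a block called 5144 genes. Among the 259 named genes that passed, 4 turned direction, all with GC and length removal and none of them past the test there. They were Sod2 (-0.0276), Rela (0.0460), Msr1 (-0.21) and Cst3 (0.0654), and the cause was not tested. Genes that were not named were not looked at for a turn of direction. Of 259 genes that were named and passed, 208 kept their call without each of the 6 libraries and 51 lost it without at least 1. All 12 marker sums moved by less than the spread between replicates when formed without the 4 ribosomal transcripts. Depth limits genes near the floor of 3 reads.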
